A study of Mus musculus with 6 samples.

Results

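The 41 genes described here were chosen to mark the non-B cells of the spleen: 24 are used as T cell identity genes (several of them shared with NK cells), 6 as NK and cytotoxic genes, 9 as myeloid genes and 2 as erythroid genes. They were listed by name, all 41 were found among the 22380 protein-coding genes of GENCODE vM1 on the mouse assembly mm9 (NCBIM37), and the p53 peaks of each list that touched the gene body extended by 10 kb on both sides were collected. The data are peak lists from p53 ChIP-seq, in which DNA recovered with the anti-p53 antibody NCL-p53-CM5p was sequenced and regions of piled-up fragments were called as peaks. Spleen cells of Trp53+/+ C57/Bl6 mice aged 8 weeks were passed over beads against B220, a B cell form of the surface protein CD45. The bound cells were the B cells, and the unbound cells, after lysis of red blood cells, were the non-B cells, a T cell-enriched mixture in which NK and myeloid cells are also present. Each compartment was taken from untreated mice (mock) or from mice given 7 Gy to the whole body and sampled 4 h later (IR). A control list came from total spleen cells of Trp53-/- mice on the C57/Bl6 background, given 7 Gy and sampled 4 h later. The labels do not give the age of these Trp53-/- mice. Each group had 1 library from the pooled chromatin of several animals, so no value has a replicate spread, no test was made, and the 95% Wilson intervals cover counting error only.

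The tumour suppressor p53 accumulates when DNA is damaged and activates its target genes through a response element made of a pair of similar decamers. Cell identity genes are switched on in their own lineage, where their promoters and enhancers lie in open chromatin, and are mostly closed in other lineages. T cells are set apart by the T cell receptor with its CD3 chains, by coreceptors and costimulatory receptors, by a kinase and adaptors that relay the receptor signal, and by transcription factors that fix the lineage.

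The lists held 1413 peaks in untreated B cells, 24507 in irradiated B cells, 712 in untreated non-B cells, 21400 in irradiated non-B cells and 83 in Trp53-/- spleen. The value deposited for each peak has no header, was read here as the authors' −log10 of a peak p-value, and is not normalised between libraries. It is therefore given below together with a percentile, the rank of the peak within its own list on a scale where 100 is the top. Sequencing depth is unknown, so the lack of a call at a site does not show that p53 was absent from it. The mock and Trp53-/- lists held peaks as narrow as 53 to 55 bp against 174 bp and 175 bp in the irradiated wild-type lists, so numbers of peaks were not compared between treatments. The lists do not measure expression, and the composition of the compartments was not checked from them. Genes that mark B cells, used for comparison, had a peak in 24 of 24 cases in both IR lists.

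Within 10 kb, the share of identity genes with a p53 peak after irradiation lay close to that of all coding genes in both compartments. In irradiated B cells 21 of 41 genes had a peak, or 51.2% (36.5 to 65.7%), against 53.4% of all coding genes. In irradiated non-B cells 23 had a peak, or 56.1% (41 to 70.1%), against 51.8% of all coding genes. This did not hold for every window. In promoter windows, from 5 kb before to 2 kb after a start, 19.5% of the 41 had a peak in irradiated B cells against 39.5% of all coding genes, and 39% against 38.4% in irradiated non-B cells. With the body extended by 50 kb the shares were 80.5% against 71% and 87.8% against 69.8%, in the same order. By nearest gene they were 43.9% against 47.4% and 61% against 45.4%, and in the body alone 29.3% against 39.8% and 41.5% against 38.5%. Within 10 kb and divided by lineage, 13 of the 24 T cell genes had a peak in irradiated B cells and 18 in irradiated non-B cells, while of the 17 NK, myeloid and erythroid genes 8 had a peak in irradiated B cells and 5 in irradiated non-B cells. The gene bodies differed in size, with a median of 20900 bp for the T cell genes and 6994 bp for the others against 15420 bp for all coding genes, and a longer body gives a wider window.

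A peak in both IR lists was found at 17 genes, in non-B cells only at 6, in B cells only at 4, and in neither at 14. Of all 22380 coding genes 11028 had a peak in both lists and 9870 in neither. The 6 genes of non-B cells only, or 14.6% of the 41, were the T cell genes Cd28, Icos, Zap70, Thy1 and Cd6 and the cytotoxic gene Prf1; over all coding genes this class made up 2.53%. The 4 genes of B cells only, or 9.76%, were the NK receptor gene Klrb1c and the myeloid genes Itgam, Itgax and Emr1, against 4.09% of all coding genes. The 14 genes without a peak were Cd3e, Cd4, Cd8a, Tbx21, Eomes, Foxp3, Ncr1, Gzma, Gzmb, Csf1r, Lyz2, Cebpa, Gata1 and Hbb-b1, and these had no mock or Trp53-/- peak either. Among them are the CD4 and CD8α coreceptors themselves and the factors that define regulatory T cells (Foxp3) and cytotoxic and NK cells (Tbx21, Eomes).

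**Figure D1:**
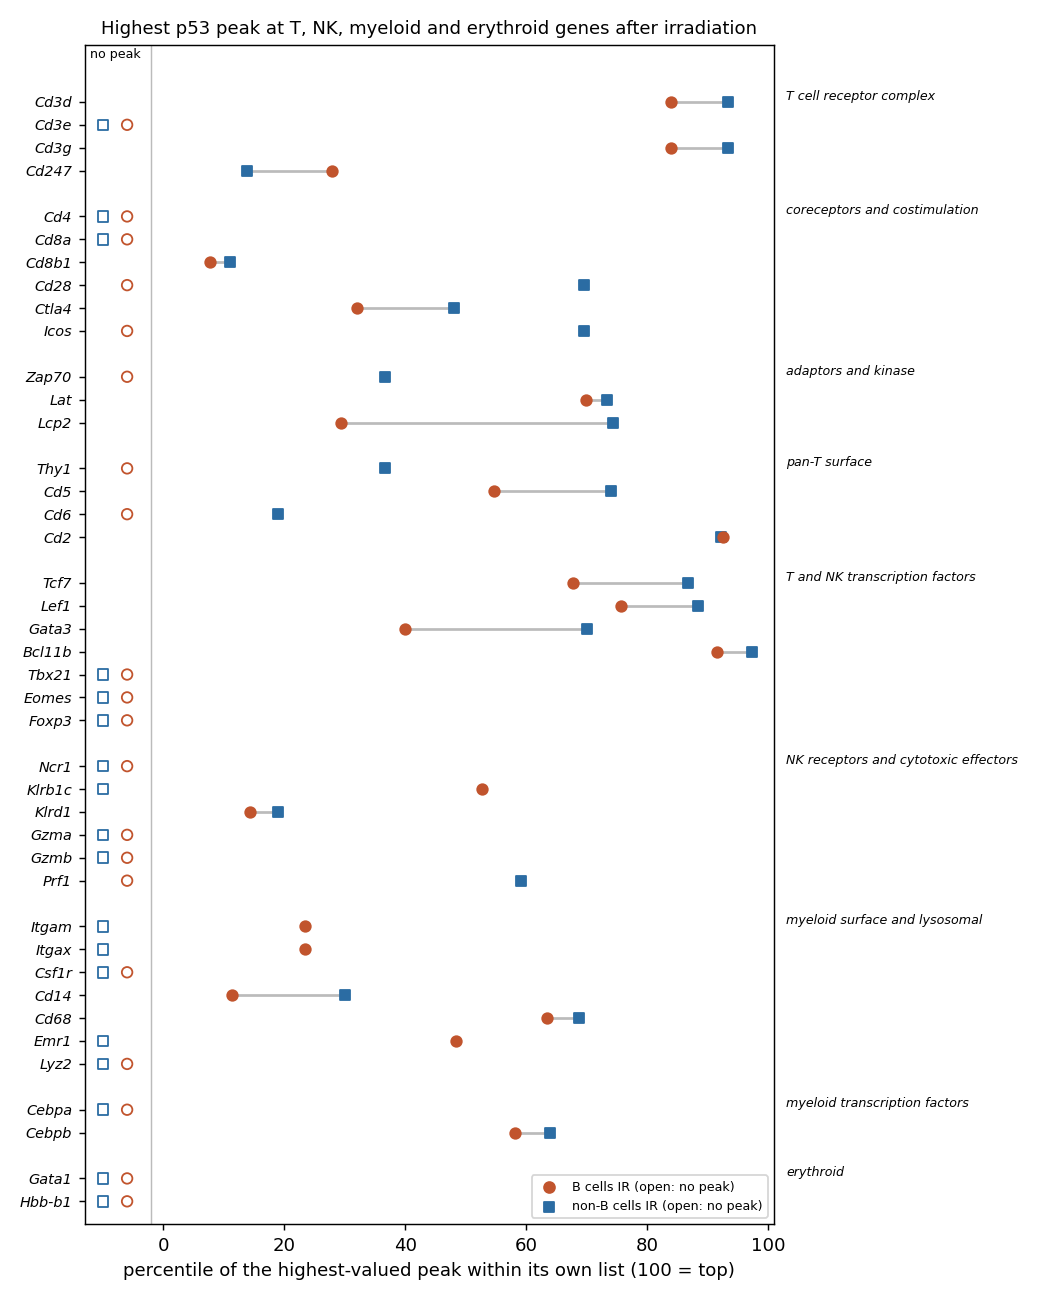
Percentile of the highest-valued p53 peak of each of the 41 genes within its own list, for B cells IR (circles) and non-B cells IR (squares), with open symbols at the left for genes without a peak. Grey lines join the 17 genes with a peak in both lists, and the square lies to the right of the circle for 15 of them.

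The T cell receptor complex had peaks at Cd3d, Cd3g and Cd247 and none at Cd3e, although all 3 of the CD3 genes lie side by side on chromosome 9. The highest peak there lay over an exon at the far end of Cd3d, which encodes the CD3δ chain, and it also falls in the window of Cd3g, which encodes CD3γ. Its value was 5.47 in untreated B cells (chr9:44794747-44794859, percentile 2.09), 45.85 in irradiated B cells (chr9:44794453-44794909, percentile 84), 11.41 in untreated non-B cells (chr9:44794738-44794839, percentile 56) and 76.30 in irradiated non-B cells (chr9:44794405-44795111, percentile 93.4). It was thus present in all 4 wild-type lists, near the bottom of the untreated B cell list and near the middle of the untreated non-B cell list. At the starts of both genes the picture differed between compartments. In irradiated non-B cells a peak of value 13.59 (percentile 30.5) had its midpoint 52 bp before the 5′ end of Cd3d, and a peak of value 16.25 (percentile 40.7) lay 16 bp inside Cd3g. Neither overlapped a peak of irradiated B cells. A peak of value 14.54 in both lists, downstream of Cd3g, lay at the 5′ end of the neighbouring gene Ube4a.

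Cd247, the gene of the CD3ζ signalling chain, had 6 peaks in irradiated non-B cells and 2 in irradiated B cells, all low in their lists. The non-B cells values ranged from 6.64 (percentile 1.41) to 10.19 (percentile 13.8), and 5 of the 6 peaks overlapped no irradiated B cell peak. The 2 irradiated B cell peaks had values of 13.08 (percentile 27.9) and 10.16 (percentile 14.3), the higher of which was not found in irradiated non-B cells. The percentile of Cd247 was lower in irradiated non-B cells by -14.0 points, the lowest difference of the 17 genes with a peak in both lists.

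CD28, the main costimulator of naive T cells, and ICOS, a related receptor of activated T cells, sit with CTLA-4, an inhibitory receptor, in a gene cluster on chromosome 1. Cd28 had no peak in either mock list or in irradiated B cells and 3 peaks in irradiated non-B cells, with values of 28.78 (chr1:60815064-60815462, percentile 69.6), 24.14 (chr1:60802999-60803352, percentile 61.7) and 15.19 (chr1:60833831-60834033, percentile 36.7). The highest lay in an intron, and the second at -27 bp from an annotated internal start. Icos had 2 peaks in irradiated non-B cells and none elsewhere. The higher, of value 28.60 (chr1:61034636-61034917, percentile 69.5), covered the first base of the gene, with its midpoint 5 bp inside it, and the other had a value of 12.13 (percentile 23.6) in an intron.

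Ctla4 had a peak just downstream of the gene in both IR lists, of value 14.10 in irradiated B cells (percentile 32) and 9.27 in irradiated non-B cells (percentile 9.75). Its highest peak was found in irradiated non-B cells only, with a value of 18.42 (chr1:60965683-60965931, percentile 48), at -62 bp from an annotated internal start. Cd8b1, which encodes the CD8β chain, had 1 peak in each IR list, of value 8.72 (percentile 7.65) in B cells and 9.46 (percentile 11.1) in non-B cells. That peak lay closer to the 5′ end of the neighbouring gene Smyd1 than to that of Cd8b1, and no peak was found at Cd8a or Cd4.

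Of the molecules that relay the receptor signal, the kinase ZAP-70 and the adaptor SLP-76 (gene Lcp2) had peaks at their starts in non-B cells only, and the adaptor LAT had one in both compartments. Zap70 had a single peak, of value 15.19 in irradiated non-B cells (chr1:36818439-36818714, percentile 36.7), 119 bp before the 5′ end. Lcp2 had no peak in untreated B cells and 1 in irradiated B cells, of value 13.45 in an intron (percentile 29.4). In untreated non-B cells it had 2 peaks at its start, of value 12.61 (chr11:33946907-33946961, percentile 64.3) and 10.19 (chr11:33947026-33947167, percentile 45.6). In irradiated non-B cells it had 4 peaks, among them one of value 27.74 over both of these (chr11:33946850-33947353, percentile 68.3) and one of value 32.38 in an intron (chr11:33964006-33964481, percentile 74.4). Lcp2 was the only gene of the 41 with a mock peak at its start in non-B cells, and its difference in percentile, 45.0 points, was the highest of the 17 genes. That difference set different intronic sites against each other. At the intronic site shared by both IR lists the value was 13.45 in irradiated B cells (percentile 29.4). In irradiated non-B cells it was 15.23 there (percentile 37.8).

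At Lat the start peak had a value of 24.07 in irradiated B cells (percentile 60.4) and 31.46 in irradiated non-B cells (percentile 73.3). A second peak in its window, of value 29.68 in irradiated B cells (percentile 69.9) and 31.23 in irradiated non-B cells (percentile 72.9), lay at the 5′ end of the neighbouring gene Spns1. By their highest peaks, Lat and Lcp2 stood at nearly the same percentile in irradiated non-B cells and far apart in irradiated B cells. For each gene the highest peak lay at a different site in each IR list. That of Lat in irradiated B cells was the peak at Spns1.

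The pan-T surface genes encode Thy-1, the receptors CD5 and CD6, and the adhesion molecule CD2. Expression of these genes in the B cells was not measured. Thy1 had 2 peaks upstream in irradiated non-B cells, of value 15.19 (percentile 36.7) and 13.13 (percentile 28.1), and none in any other list. Cd6 had 3 low peaks in irradiated non-B cells, of value 11.15 (percentile 18.9), 10.19 (percentile 13.8) and 7.31 (percentile 2.59), and none in any other list. Cd5, which some B cells also carry, had a start peak in both compartments, of value 21.55 in irradiated B cells (percentile 54.7) and 32.20 in irradiated non-B cells (percentile 74.1). Cd5 had a further intronic peak of value 11.15 in irradiated non-B cells only.

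Cd2 differed from most of the other T cell genes in that its highest peaks ranked as high in B cells as in non-B cells. Its highest peak, downstream of the gene, had a value of 73.87 in irradiated B cells (chr3:101078653-101079173, percentile 92.6) and 68.05 in irradiated non-B cells (chr3:101078602-101079145, percentile 92.2). The mock peak of each compartment lay at a different site downstream. In untreated non-B cells it had a value of 5.95 (percentile 5.2) under that highest peak, and in untreated B cells a value of 9.08 (percentile 48.4) at chr3:101074864-101074930. The peak over this second site had a value of 60.63 in irradiated B cells (percentile 89.9) and 24.29 in irradiated non-B cells (percentile 62.3). The start peak of Cd2 was likewise higher in irradiated B cells, with a value of 26.45 (percentile 64.7) against 9.84 in irradiated non-B cells (percentile 11.8), while 2 intronic peaks of value 20.66 and 10.91 were found in irradiated non-B cells only and 2 low peaks of value 9.31 and 8.94 in irradiated B cells only.

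Among the T cell transcription factors, 4 of 7 had peaks, all in both IR lists. Bcl11b, which is needed for T cell commitment, had 1 intronic peak in irradiated B cells, of value 67.33 (chr12:109175531-109176285, percentile 91.5). The same site had a value of 143.84 in irradiated non-B cells (chr12:109175341-109176352, percentile 97.3), rank 578 of 21400, and no mock peak. A further 3 intronic peaks of Bcl11b, of value 19.53, 15.19 and 13.13, were found in irradiated non-B cells only. Tcf7 encodes TCF-1, a factor of early and naive T cells. Its highest peak, also in an intron, had a value of 28.40 in irradiated B cells (chr11:52081772-52082337, percentile 67.8) and 48.74 in irradiated non-B cells (chr11:52081781-52082404, percentile 86.7). A neighbouring intronic site of Tcf7 was called as 1 peak of value 43.23 (percentile 83.7) in irradiated non-B cells and as 2 peaks of value 12.09 and 11.11 in irradiated B cells.

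Lef1, a relative of Tcf7 that is also used in early B cells, had 11 peaks in irradiated non-B cells and 7 in irradiated B cells. Its highest peak in irradiated B cells, in an intron, had a value of 34.63 (chr3:130884967-130885503, percentile 75.7), and the same site had a value of 48.14 in irradiated non-B cells (percentile 86.3). The highest in irradiated non-B cells lay at another intronic site, with a value of 52.93 (chr3:130911464-130911838, percentile 88.4) against 26.45 in irradiated B cells (percentile 64.7). Of the 11 non-B cells peaks 7 overlapped no irradiated B cell peak, a number reached by 11 coding genes in all. Of the 7 B cells peaks 2 overlapped no irradiated non-B cell peak. These counts do not allow for gene length, which is 113886 bp for Lef1 against a median of 15420 bp over all coding genes. Gata3, a factor of T helper cells, had the second-largest gain, 30.1 points. Its highest peak had a value of 16.19 in irradiated B cells (chr2:9794233-9794806, percentile 40) and 28.97 in irradiated non-B cells (chr2:9794328-9794811, percentile 70.1). At another shared site the order was the other way round, 14.48 in irradiated B cells (percentile 33.6) against 5.31 in irradiated non-B cells (percentile 0.0724). Each Gata3 peak lay closer to the 5′ end of the gene 4930412O13Rik than to that of Gata3.

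**Figure D2:**
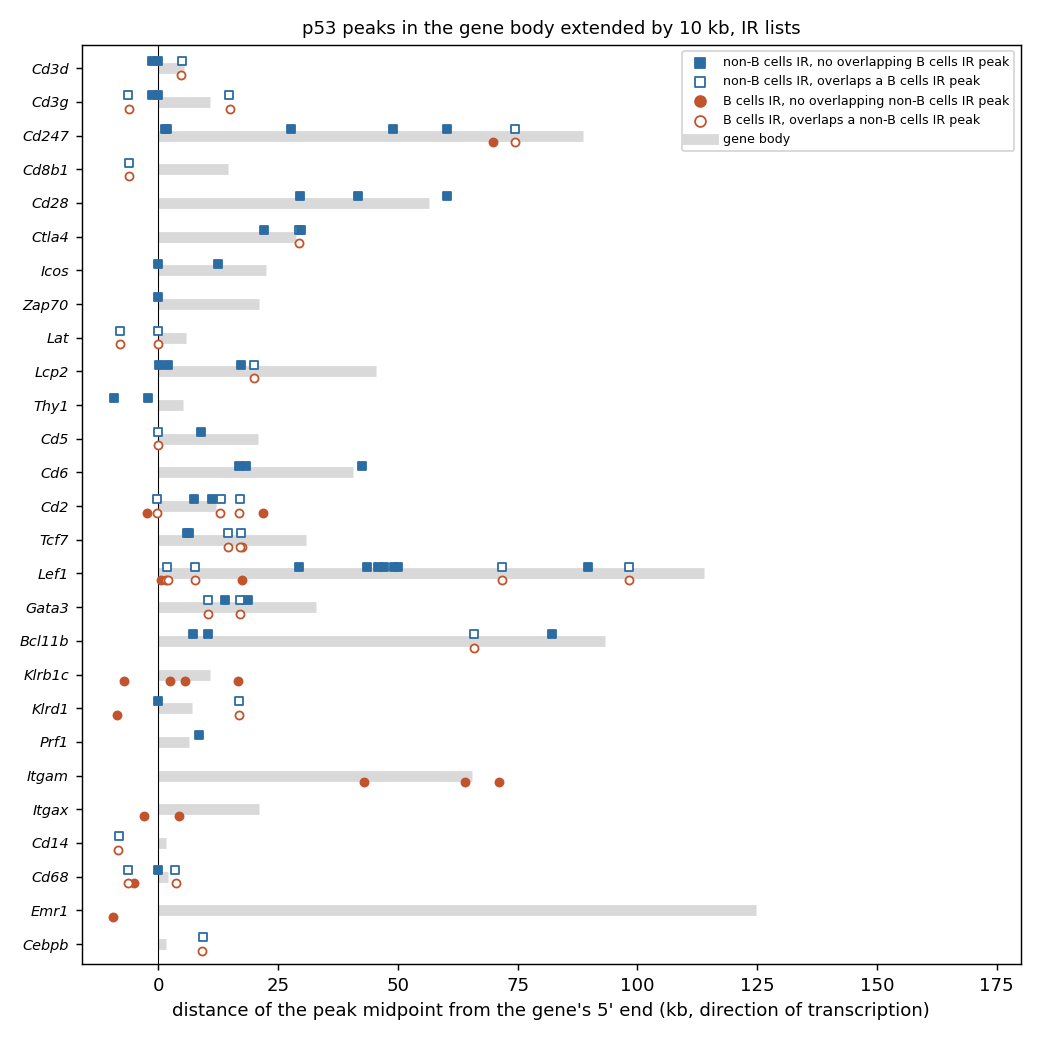
Position of every IR peak in the windows of the 27 genes that had one, as distance of the peak midpoint from the 5′ end of the gene in kb, with the gene body as a grey bar, non-B cells IR as squares above and B cells IR as circles below. Filled symbols overlap no peak of the other IR list. Most filled symbols at the T cell genes (Cd3d to Bcl11b) are non-B squares, and those at Klrb1c, Itgam, Itgax and Emr1 are all B circles.

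The NK genes gave a mixed picture. Klrb1c, which encodes the NK receptor NK1.1, had 2 intronic peaks in untreated B cells, of value 17.17 (chr6:128736604-128736697, percentile 84.6) and 10.19 (percentile 55.9). In irradiated B cells it had 4 peaks of value 20.60 (chr6:128736592-128736861, percentile 52.7), 13.28, 12.09 and 10.22, and it had none in either non-B list. Klrb1c lies in a cluster of similar lectin-like receptor genes, and how reads that match several copies were handled is not given in the sources used here. Klrd1, which encodes CD94, had a downstream peak in both IR lists, nearer to the gene Klrk1, of value 10.16 in B cells (percentile 14.3) and 11.15 in non-B cells (percentile 18.9), and a start peak in irradiated non-B cells only, of value 10.52 (percentile 15.6), 132 bp before the 5′ end. Prf1, the gene of the pore-forming protein perforin, had 1 peak, of value 22.96 downstream in irradiated non-B cells (chr10:60769009-60769304, percentile 59.2), nearer to the 5′ end of Rpl27a-ps1 than to that of Prf1. No peak was found at Ncr1, an activating NK receptor gene, or at the granzyme genes Gzma and Gzmb.

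At 3 of the 9 myeloid genes peaks were found in B cells only. Itgam and Itgax, the genes of the integrin chains CD11b and CD11c, are neighbours and share 2 of their peaks. In irradiated B cells 3 peaks were found there, of value 12.09 (chr7:135270077-135270253, percentile 23.5), 10.08 (percentile 12.7) and 8.33 (percentile 5.73), and none was found in any other list. Emr1, which encodes the macrophage antigen F4/80, had 1 upstream peak in irradiated B cells, of value 19.10 (percentile 48.4). At Cd68, a lysosomal protein gene of macrophages, the highest peak had a value of 25.66 in irradiated B cells (percentile 63.5) and 27.86 in irradiated non-B cells (percentile 68.8), but lay 86 bp and 42 bp from the 5′ end of the neighbour Mpdu1. The peak nearest to the start of Cd68 itself, of value 15.20 (percentile 37.6) at 51 bp before it, was found in irradiated non-B cells only.

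At Cd14, the gene of an endotoxin coreceptor, the only peak, of value 9.46 in irradiated B cells (percentile 11.4) and 13.55 in irradiated non-B cells (percentile 30.1), lay 9 bp and 33 bp from the 5′ end of another gene, Tmco6. Cebpb, a factor of inflammatory gene expression, had 1 downstream peak in both lists, nearer to the gene Tmem189, of value 22.89 (percentile 58.1) and 25.32 (percentile 63.9). The receptor gene Csf1r, the lysozyme gene Lyz2 and the granulocyte factor gene Cebpa had none, and neither had the erythroid genes Gata1 and Hbb-b1. Over the whole set the nearest coding gene was the member itself for 29 of 43 peaks in irradiated B cells and 54 of 69 in irradiated non-B cells.

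Without irradiation 4 genes had a peak in each compartment, or 9.76% (3.86 to 22.5%), against 4.45% of all coding genes in untreated B cells and 2.27% in untreated non-B cells. Cd3d and Cd3g, which share a peak, and Cd2 were among the 4 in both. The others were Klrb1c in B cells and Lcp2 in non-B cells. None of the 41 genes had a peak in Trp53-/- spleen, which allows a share of up to 8.57%, and 0.125% of all coding genes had one.

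The ranks of the 17 genes with a peak in both IR lists were then compared. The percentile of the highest peak was higher in non-B cells for 15 of them, or 88.2% (65.7 to 96.7%), against 48.2% of the 11028 coding genes with a peak in both. It was lower for Cd247 and for Cd2, by -0.4 points in the latter case. The median difference was 9.40 points (order-statistic interval 4.60 to 18.72), against -0.24 over all coding genes. Cd3d and Cd3g share their highest peak and each count among the 15. Cd8b1, Klrd1, Cd68, Cd14, Cebpb and Gata3 also count among them. Their compared peaks lay nearer to the 5′ end of another gene. The intervals do not allow for shared peaks or for peaks of neighbouring genes. In the B cell comparison list the order was the other way round, with 3 of 24 genes higher in non-B cells and a median of -3.81 points (-6.78 to -0.75). A further 29 T cell genes, among them the kinase gene Lck and the cytokine receptor gene Il7r, did not show the shift, with 13 of 26 higher in non-B cells and a median of 0.07 points (-2.75 to 3.61), nor did 23 further NK and myeloid genes, with 6 of 13 higher and a median of -0.88 points (-9.01 to 7.40).

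The difference in rank held only for some ways of assigning peaks. With the body not extended, the share of genes higher in non-B cells was 88.9% (8 of 9), against 48.7% of all coding genes. Between overlapping peaks it was 82.4% (14 of 17), against 52.5%. By nearest gene it was 47.1% (8 of 17), with a median of -0.42 points, against 44.9% and -0.71 points for all coding genes. With the body extended by 50 kb it was 54.8% (17 of 31) and 0.78 points, against 47.8% and -0.20. In promoter windows it was 50% (3 of 6) and 1.09 points, against 51.5% and 0.27.

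**Figure D3:**
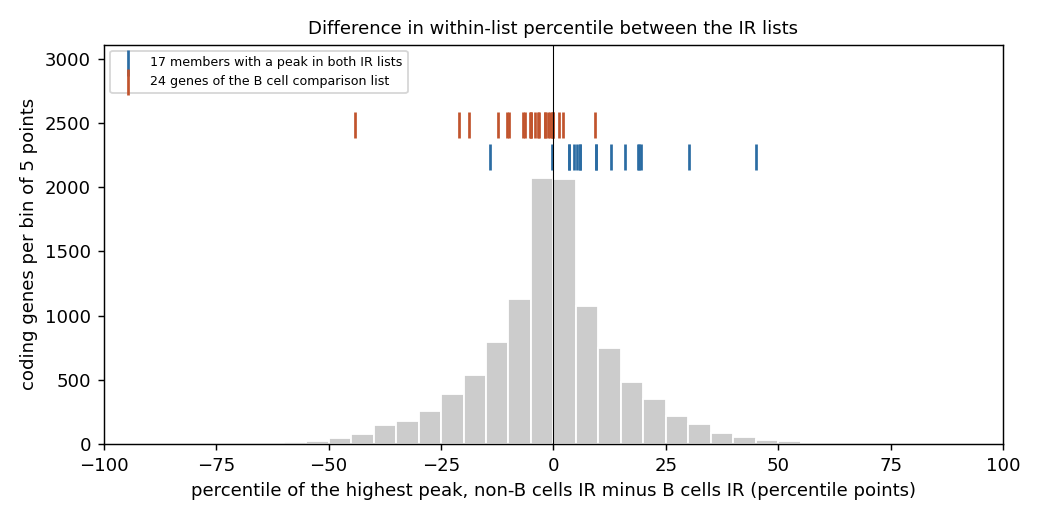
Difference in percentile of the highest peak, non-B cells IR minus B cells IR in percentile points, for the 11028 coding genes with a peak in both lists (grey bars, genes per bin of 5 points). Ticks above mark the 17 identity genes (lower row, median 9.40) and the 24 genes of the B cell comparison list (upper row, median -3.81).

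The peaks were next divided by whether they overlapped a peak of the other IR list. The windows of the 41 genes held 69 distinct peaks in irradiated non-B cells, of which 43 overlapped no irradiated B cell peak, or 62.3% (50.5 to 72.8%), against 14.7% of all irradiated non-B cell peaks. In the other direction 15 of 43 irradiated B cell peaks overlapped no irradiated non-B cell peak, or 34.9% (22.4 to 49.8%), against 26.4% of all. The T cell genes accounted for 40 of these 43 non-B peaks and for 5 of the 15 B peaks, and the NK and myeloid genes for 3 and 10. Shared peaks included, the T cell genes held 61 of the 69 non-B peaks and 28 of the 43 B peaks. The NK and myeloid genes held 8 and 15. Neighbouring peaks of one gene are not independent, and without Lef1 and Cd247, which had the most such peaks, 40.4% of irradiated non-B cell peaks (21 of 52) were found in B cells against 37.7% (26 of 69) with them.

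Counted by gene, 19 of the 41 had at least 1 irradiated non-B cell peak that overlapped no irradiated B cell peak, or 46.3% (32.1 to 61.3%), against 11.1% of all coding genes. For the T cell genes the number was 16 of 24, or 66.7% (46.7 to 82%), and for the others 3 of 17. At least 1 irradiated B cell peak that overlapped no irradiated non-B cell peak was found at 9 of the 41, or 22% (12 to 36.7%), against 19.6% of all coding genes. For the T cell genes the number was 3 of 24, or 12.5% (4.34 to 31%). For the others it was 6 of 17, or 35.3% (17.3 to 58.7%). By share of peaks, the B cell comparison list differed from the 41 genes on the non-B side. In it 3 of 108 irradiated non-B cell peaks were absent from B cells, or 2.78% (0.949 to 7.85%), against 14.7% of all. In the other direction 53 of 157 irradiated B cell peaks were absent from non-B cells, or 33.8% (26.8 to 41.5%). That share was 34.9% at the 41 genes and 26.4% over the whole list. By gene, 3 of these 24 had such a peak in non-B cells and 18 in B cells. For the further T cell genes 44 of 133 irradiated non-B cell peaks were absent from B cells, or 33.1% (25.7 to 41.5%), and 27 of 114 irradiated B cell peaks were absent from non-B cells, or 23.7% (16.8 to 32.3%). By gene, 17 of these 29 had such a peak in non-B cells and 15 in B cells. For the further NK and myeloid genes the numbers were 4 of 36 peaks, or 11.1% (4.41 to 25.3%), and 2 of 33, or 6.06% (1.68 to 19.6%).

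Peaks of a single compartment were mostly low in their lists. At the 41 genes the median percentile of the 43 non-B peaks was 23.6, and the highest was 74.4, at the Lcp2 intron. Above percentile 60 lay 6 of the 43, or 14% (6.56 to 27.3%), at Lcp2, Cd28, Icos and Lef1, against 4.97% of the 3138 such peaks of the whole list. With the IR lists split by value into quintiles, 7 of 25 member peaks in the lowest quintile of irradiated non-B cells were found in B cells, 3 of 16 in the second, 1 of 7 in the middle, 8 of 14 in the fourth and 7 of 7 in the highest. The shares over all peaks were 63.2, 78.5, 88.7, 96.7 and 99.7%. In irradiated B cells the member peaks followed the whole list more closely, with 6 of 14, 8 of 13, 3 of 5, 7 of 7 and 4 of 4 found in non-B cells.

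**Figure D4:**
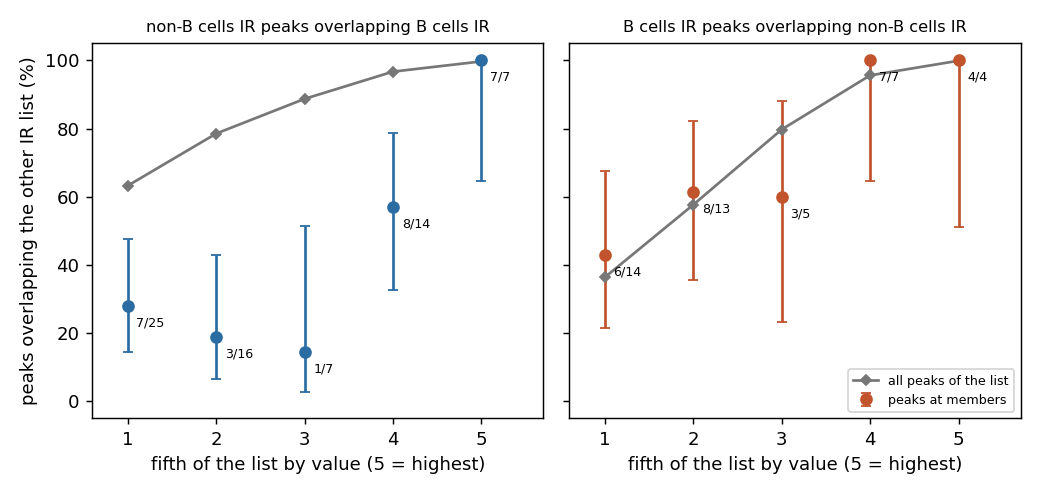
Share of peaks that overlap a peak of the other IR list, in percent, by quintile of the list (5 holds the highest values), for peaks at the 41 genes (points with 95% Wilson intervals and counts) and for all peaks (grey line). In non-B cells IR the points lie below the line in quintiles 1 to 4, and in B cells IR the intervals include the line in each quintile.

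Gene starts were then examined. A peak with its midpoint within 1 kb of an annotated start was found at 14 of the 41 genes in irradiated non-B cells, or 34.1% (21.6 to 49.5%), against 34.2% of all coding genes. In irradiated B cells it was found at 6, or 14.6% (6.88 to 28.4%), against 35% of all coding genes. Of the 24 T cell genes 12 had such a peak in irradiated non-B cells, or 50% (31.4 to 68.6%). In irradiated B cells 6 of them had one, or 25% (12 to 44.9%). Of the 17 other genes 2 had one in irradiated non-B cells, or 11.8% (3.29 to 34.3%), and 0 in irradiated B cells. In both compartments such a peak was present at Cd2, Cd5, Gata3, Lat and Lef1. In irradiated non-B cells only, it was present at Cd28, Cd3d, Cd3g, Cd68, Ctla4, Icos, Klrd1, Lcp2 and Zap70, and in irradiated B cells only at Cd247. Those at Cd28, Ctla4, Gata3 and Cd247, and that at Lef1 in irradiated non-B cells, lay at internal starts. With the 5′ end as the only start, 10 genes had such a peak in irradiated non-B cells, or 24.4%. In irradiated B cells 4 had one, or 9.76%. The share of all coding genes was not counted in this way. In the B cell comparison list 24 of 24 genes had a start peak in irradiated B cells and 22 in irradiated non-B cells, and of the further T cell genes 15 and 20 of 29. The count of start peaks was made after the peaks had been seen.

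The p53 consensus element in its unsplit form, in which the decamers adjoin and at most 3 bases deviate, was looked for within 300 bp of each midpoint. Such an element occurred in 4 of 43 member peaks in irradiated B cells, or 9.3% (3.68 to 21.6%), against 15.3% of all peaks of that list and 3.22% of windows moved by 10 kb. In irradiated non-B cells it was found in 3 of 69, or 4.35% (1.49 to 12%), against 15.4% of all peaks and 3.31% of moved windows. With at most 4 mismatches the non-B share was 15.9% (11 of 69) against 22.6% of all peaks. No mock peak at these genes held the element. The 4 distinct elements are shown because they are the only ones found under these peaks, with capitals on the C and G that the search required in each decamer, and the positions are on mm9.
Lef1, element, chr3:130885232-130885251, + strand: aggCatGcctgagCtaGcaa
Tcf7, element, chr11:52082170-52082189, + strand: gtgCagGgctgggCaaGccc
Cd247, element, chr1:167793317-167793336, + strand: acaCatGtaaagaCatGttt
Itgam and Itgax, element, chr7:135270119-135270138, + strand: agaCatGagcaaaCaaGtct

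The Lef1 element, with 2 mismatches, lay under its highest peak in irradiated B cells, the second-highest in irradiated non-B cells, and the Tcf7 element, with 3 mismatches, under its highest. The Cd247 element, with 3 mismatches, lay under a peak at percentile 14.3 in irradiated B cells and 3.08 in irradiated non-B cells. The Itgam and Itgax element, with 2 mismatches, lay under the peak found in irradiated B cells only. The high peaks at Bcl11b, Cd3d and Cd2 held no element of this kind. In irradiated non-B cells neither did the highest Lef1 peak (percentile 88.4) or the second-highest Tcf7 peak (percentile 83.7). The Tcf7 element is shown once more within 250 bases around the midpoint of its peak in irradiated non-B cells, percentile 86.7, with the element in capitals.
Tcf7, intron, chr11:52081967-52082216, + strand: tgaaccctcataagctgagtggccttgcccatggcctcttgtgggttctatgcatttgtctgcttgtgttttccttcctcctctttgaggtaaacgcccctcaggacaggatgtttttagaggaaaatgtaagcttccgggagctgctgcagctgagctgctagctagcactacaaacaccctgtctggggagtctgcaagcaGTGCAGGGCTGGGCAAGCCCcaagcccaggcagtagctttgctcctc

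Short letter strings that resemble the binding sites of other blood cell factors were counted in the same windows of 600 bases, each on both strands and on its own. TGTGGT, a core recognised by RUNX factors, was present in 22 of 43 member peaks absent from irradiated B cells, or 51.2% (36.8 to 65.4%), and in 13 of 26 member peaks shared with B cells, or 50% (32.1 to 67.9%). It was present in 49.5% of all irradiated non-B cell peaks absent from irradiated B cells, in 38% of all shared ones and in 40.3% of windows moved by 10 kb. CTTTGA, a core recognised by TCF and LEF factors, was present in 55.8% (41.1 to 69.6%) of the member peaks absent from irradiated B cells, in 38.5% (22.4 to 57.5%) of the shared ones, and in 40.9, 33.8 and 36.4% of the same 3 sets. The string AGATAA, recognised by the factor family of Gata3, was present in 34.9% of the member peaks absent from irradiated B cells and in 26.8% of all such peaks, and GGAAGT, an ETS core, in 46.5% and 43.8%. A single p53 decamer without mismatch was present in 18.6% (9.74 to 32.6%) of the member peaks absent from irradiated B cells and in 23.5% of all such peaks. The intervals of these member shares include the share over all such peaks except for CTTTGA, whose lower bound of 41.1% lies just above 40.9%. They do not allow for several strings having been counted, or for neighbouring peaks of one gene. Of the 43 peaks, Lef1 had 7 and Cd247 had 5. The median GC content was 50% in the member windows absent from irradiated B cells and 47.8% in all such windows.

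The sequences of 5 sites are shown from the mm9 reference, all on its + strand; they were chosen after the values had been seen. Zap70, Icos and Cd3d are shown because their starts had a peak in irradiated non-B cells and none in irradiated B cells, and Cd28 and Lcp2 as the highest peaks absent from irradiated B cells within introns. The starts of Cd3g, Cd68, Klrd1 and Lcp2 and internal starts of Cd28 and Ctla4 met the same rule but are not shown. Capitals mark TGTGGT and CTTTGA on either strand.
Zap70, before the gene start, chr1:36818476-36818675, + strand: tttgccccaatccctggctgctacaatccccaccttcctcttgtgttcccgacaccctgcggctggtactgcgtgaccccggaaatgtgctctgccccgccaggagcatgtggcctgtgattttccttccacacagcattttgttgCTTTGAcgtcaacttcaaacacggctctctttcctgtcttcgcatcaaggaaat
Icos, before the gene start, chr1:61034571-61034770, + strand: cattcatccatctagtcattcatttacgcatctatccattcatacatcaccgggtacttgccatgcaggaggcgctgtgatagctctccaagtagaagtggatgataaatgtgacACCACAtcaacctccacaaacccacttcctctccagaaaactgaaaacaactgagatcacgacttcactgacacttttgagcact
Cd3d, before the gene start, chr9:44789676-44789875, + strand: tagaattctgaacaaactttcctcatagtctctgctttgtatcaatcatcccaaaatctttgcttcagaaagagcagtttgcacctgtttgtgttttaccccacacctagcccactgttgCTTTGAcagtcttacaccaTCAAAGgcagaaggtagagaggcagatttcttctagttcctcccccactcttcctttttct
Cd28, intron, chr1:60815163-60815362, + strand: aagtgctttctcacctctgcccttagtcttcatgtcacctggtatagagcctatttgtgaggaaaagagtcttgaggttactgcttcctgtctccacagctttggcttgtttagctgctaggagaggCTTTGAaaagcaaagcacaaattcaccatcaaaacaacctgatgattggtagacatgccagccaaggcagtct
Lcp2, intron, chr11:33964143-33964342, + strand: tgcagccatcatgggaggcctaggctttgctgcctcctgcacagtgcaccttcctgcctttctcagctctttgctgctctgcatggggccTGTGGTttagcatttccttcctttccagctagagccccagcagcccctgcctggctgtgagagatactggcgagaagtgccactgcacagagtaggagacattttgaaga

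The 200 bases before Cd3d held CTTTGA on both strands, and those at Zap70 and the Cd28 intron held it once each. The string TGTGGT lay in the Lcp2 intron and, on the other strand, before Icos. Of the gene starts not shown, the 200 bases before Cd3g and Cd68 held neither string. Those before Lcp2 held CTTTGA, and those before Klrd1 held both strings. A match is a description of letters, and binding of these factors was not measured.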

How the data were processed

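The study sequenced p53 ChIP DNA from chromatin pooled across animals. Low-quality bases were masked with the FASTX-Toolkit, reads were placed on mm9 with BWA (0.6.2 in the submitters' processing notes), and MACS made the peak calls. SAMtools is also named in those notes. The 5 lists give coordinates and 1 value per peak, without a header. The deposited value was read as −log10 of a peak p-value computed by the authors: the lowest values were 5.01 to 5.85, and 29.7 to 41.5% of values below 40 in the 4 wild-type lists lay within 0.01 of −log10 of a Poisson probability of whole reads at a single mean. On this reading, the p-value limit of 1e-08 stated in the methods had not been applied to this column. Of the 6 libraries, the input was not analysed here.

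Genes and 95495 transcripts were taken from GENCODE vM1, and all peaks ended within the NCBIM37 chromosome lengths. Peaks touching a gene body extended by 10 kb were assigned to that gene, so a peak can count for 2 genes. Peaks of different lists that shared at least 1 bp were taken as overlapping. Distances were taken from peak midpoints. Shares have 95% Wilson intervals for counting error only. Element windows were 600 bp wide, and each decamer had to carry its C (position 4) and its G (position 7). The members, gene lists and rules were chosen with earlier results of these data known. Alternatives changed the window, the gene assignment, the overlap, the minimum value, the list sizes, the background and the element search. In the list of further NK and myeloid genes 2 of 25 symbols, Spi1 and Cebpd, were not matched.

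Values were given for the 12 members with the highest percentile in non-B cells IR, every member with a mock peak or with a peak in a single IR list, the 4 largest percentile differences in each direction, and members without a peak by name; the other members, the start-site counts, the letter strings and the sequences beside that of Tcf7 were added after the values were seen. The steps recovered 7 of 7 known quantities in simulated lists of up to 5000 peaks. Python 3.11.15, numpy 2.4.6, scipy 1.17.1 and matplotlib 3.10.9 were used.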

Additional observations from a re-analysis of the deposited data

How the results depend on the processing

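No paired analysis was possible because the groups hold a single library, which also left no replicate to omit. Under the alternatives 89 values stayed within the 95% interval of the value reported or, for counts, within 1.5 times, 34 moved further and 1 changed sign. The change of sign was that of the median percentile difference, which was -0.42 points by nearest gene, against -0.71 over all coding genes. It was 0.78 with 50 kb and 1.09 in promoter windows, against -0.20 and 0.27. The share of genes higher in non-B cells was 47.1, 54.8 and 50% under the same settings, against 44.9, 47.8 and 51.5%. Wider or narrower windows changed the shares of genes with a peak by their construction. In irradiated B cells they were 29.3% (body alone), 80.5% (50 kb), 34.1% (10 kb around the 5′ end), 19.5% (promoter) and 26.8% (minimum value of 20). In irradiated non-B cells they were 87.8% (50 kb), 39% (promoter) and 36.6% (minimum value of 20). In each mock list they were 2.44% (promoter) and 0% (minimum value of 20), and with 50 kb 9 and 8 genes had a mock peak in B and non-B cells. In promoter windows all coding genes had a peak in 39.5% (irradiated B cells) and 38.4% (irradiated non-B cells). Genes with a peak in irradiated non-B cells only were 10 in promoter windows, and those in irradiated B cells only 2 with 50 kb, 2 in promoter windows, 1 by nearest gene and 1 at a minimum value of 20. With all genes of the annotation as background the shares were 3.51% (untreated B cells), 41.2% (irradiated B cells), 1.74% (untreated non-B cells) and 39.8% (irradiated non-B cells). At a minimum value of 20, an alternative added after seeing the data, member peaks found in the other list were 92.9% in irradiated B cells and 62.5% in irradiated non-B cells, against 95.5 and 97% of all. With equal list sizes, also added, 34.8% of irradiated non-B cell member peaks were found in B cells against 80.9% of all. The element share in irradiated non-B cells was 1.45% with at most 2 mismatches and 15.9% with at most 4. Taking the 5′ end as the only start, 15.2% (irradiated B cells) and 22.2% (irradiated non-B cells) of gene and peak pairs lay in the promoter window, against 28.3 and 33.3% with all starts. Depth is unknown and limits what a missing peak can show.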
